A study of Mus musculus with 12 samples.

Results

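Hand1, Hand2, Twist1 and Twist2 encode tissue-restricted basic helix-loop-helix (bHLH) transcription factors, and Tcf3, Tcf4 and Tcf12 encode the broadly expressed E proteins with which they pair. These 7 genes were followed by taking every probe set annotated to exactly 1 of them on either of 2 mouse array designs. This gave 21 of 45265 probe sets, 16 on the A design and 5 on the B design. All 7 genes were on the A design, and the B design held 2 further probe sets of Hand2 and 3 of Tcf12. The RNA came from wild-type autopods, the hand and foot plates, of E12.5 mouse embryos. The groups were 3 hindlimb samples (numbered 12, 14 and 26) and 3 forelimb samples (11, 13 and 25), each hybridised to both designs of the MOE430 set by Affymetrix, which makes 12 arrays. Strain and the number of embryos per sample were not found in the labels, and nothing in the labels says that samples were separate animals. The p-values therefore measure only the spread between these samples, which may be technical.

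bHLH factors bind DNA as pairs at E-boxes, short sites of the form CANNTG. The E proteins (Tcf3 is also called E2A, Tcf4 is the gene of E2-2 and not the Wnt effector Tcf7l2, and Tcf12 is HEB) pair with the tissue-restricted factors, and Id proteins, which lack a DNA-binding region, take E proteins out of such pairs. In the limb bud Hand2 acts in the posterior mesenchyme, upstream of Shh and in mutual antagonism with Gli3. Twist1 is needed in limb mesenchyme for outgrowth and can pair with Hand2, and mice with a single working Twist1 copy form extra digits.

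For sequence context, the RefSeq promoter table (GRCm38.p6) held 5 of the 7 genes: Hand2, Twist1, Twist2, Tcf3 and Tcf12. The windows below run from 250 bases before to 50 bases after the gene's start, 5′ to 3′ on the gene's strand, and capitals mark CANNTG. They are shown for Hand2, the gene at the head of the posterior circuit, and for the Twist pair, whose signals are described next. Hand2 lies at chr8:57320733-57321032 (plus strand), Twist1 at chr12:33957421-33957720 (plus strand) and Twist2 at chr1:91801211-91801510 (plus strand).
Hand2: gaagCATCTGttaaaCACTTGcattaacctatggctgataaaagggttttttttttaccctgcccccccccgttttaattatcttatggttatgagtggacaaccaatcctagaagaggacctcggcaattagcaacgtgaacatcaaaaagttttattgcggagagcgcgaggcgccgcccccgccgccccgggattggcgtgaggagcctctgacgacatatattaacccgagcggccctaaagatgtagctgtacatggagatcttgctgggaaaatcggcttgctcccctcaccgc
Twist1: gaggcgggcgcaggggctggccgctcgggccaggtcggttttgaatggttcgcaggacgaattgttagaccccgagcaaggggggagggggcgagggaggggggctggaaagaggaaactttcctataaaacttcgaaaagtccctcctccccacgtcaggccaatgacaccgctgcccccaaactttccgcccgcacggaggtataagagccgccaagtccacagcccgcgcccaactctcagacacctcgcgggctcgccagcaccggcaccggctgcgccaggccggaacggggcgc
Twist2: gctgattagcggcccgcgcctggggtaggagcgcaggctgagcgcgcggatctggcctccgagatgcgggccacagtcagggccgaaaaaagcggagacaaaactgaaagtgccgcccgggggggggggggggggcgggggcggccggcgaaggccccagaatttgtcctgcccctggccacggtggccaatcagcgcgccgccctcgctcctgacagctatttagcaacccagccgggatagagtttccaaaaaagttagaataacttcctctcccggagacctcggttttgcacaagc
The Hand2 window held 2 E-boxes, CATCTG starting 246 bases and CACTTG starting 235 bases before the gene's start. CANNTG was in neither Twist window, where these letters alone were searched. Of all 32851 windows of this length, 72.3% held CANNTG and 17.2% held CATCTG on either strand. A match is a description of letters and not of a bound site.

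Signals are the authors' MAS5.0 intensities, brought to the same trimmed mean of 500 on every array, and are called scaled signals. Each difference is the hindlimb mean minus the forelimb mean of log2(signal + 32) over 3 samples a limb, a scale that understates changes at low signal. The tests are limma's, adjusted over all tested probe sets of a design (15338 on array A and 17145 on array B). A probe set was tested where 3 or more of the 6 arrays had a scaled signal of 100 or higher. Scaling multiplied the deposited intensities by 1.43 on array A and by 7.14 on array B. Scaled signals near 100 on array B were thus lower as deposited than those near 100 on array A. With the filter on the values as deposited, 5199 probe sets were tested on array B rather than 17145. Bright and dim describe the scaled signal of a probe set within its own design. Signals of different probe sets, or of the same gene on both designs, were not tested against each other. The limb of forelimb 11 on the A array rests on a letter in its title, since its tissue label names no limb. As a check of the labels, Tbx5, the forelimb T-box factor, was 8.0 to 13.9 in the 3 hindlimb samples and 474 to 555 in the 3 forelimb samples by its first probe set on the A array. Pitx1, a hindlimb homeobox factor, was 478 to 678 in hindlimb and 99.0 to 160 in forelimb on the A array, and Tbx4, the hindlimb T-box factor, was 4497 to 5558 in hindlimb and 1124 to 1251 in forelimb on the B array.

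No member passed the test between the limbs. Of the 15 tested probe sets on the A array 0 had an adjusted p under 0.05, where 0.0326% of all tested probe sets did, and of the 4 on the B array 0 did, where 0.0117% did. Their limma adjusted p was 0.552 to 0.997 on array A and 0.904 to 0.950 on array B. Without adjustment, p was under 0.05 for 2 of the 15 (Twist2 and Hand1), against a background of 5.54% of the tested probe sets, and for 0 of the 4 on the B array, also against 5.54%. With consecutive sample numbers as a block, a pairing that the labels do not state, it was so for 5 of the 15, against 7.49% of all tested probe sets in that fit. The limbs did not overlap, with hindlimb higher, on 1 of 15 probe sets on array A (background 4.94%) and 1 of 4 on array B (background 4.81%), both of Tcf12. They did not overlap, with hindlimb lower, on 1 of 15 on array A (Twist2, background 6.1%) and on 0 of 4 on array B (background 6.14%). The members' median difference was -0.017 on array A and 0.15 on array B, beside -0.0086 and -0.014 over all tested probe sets. The levels and the intervals of the differences follow for each gene.

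**Figure D1:**
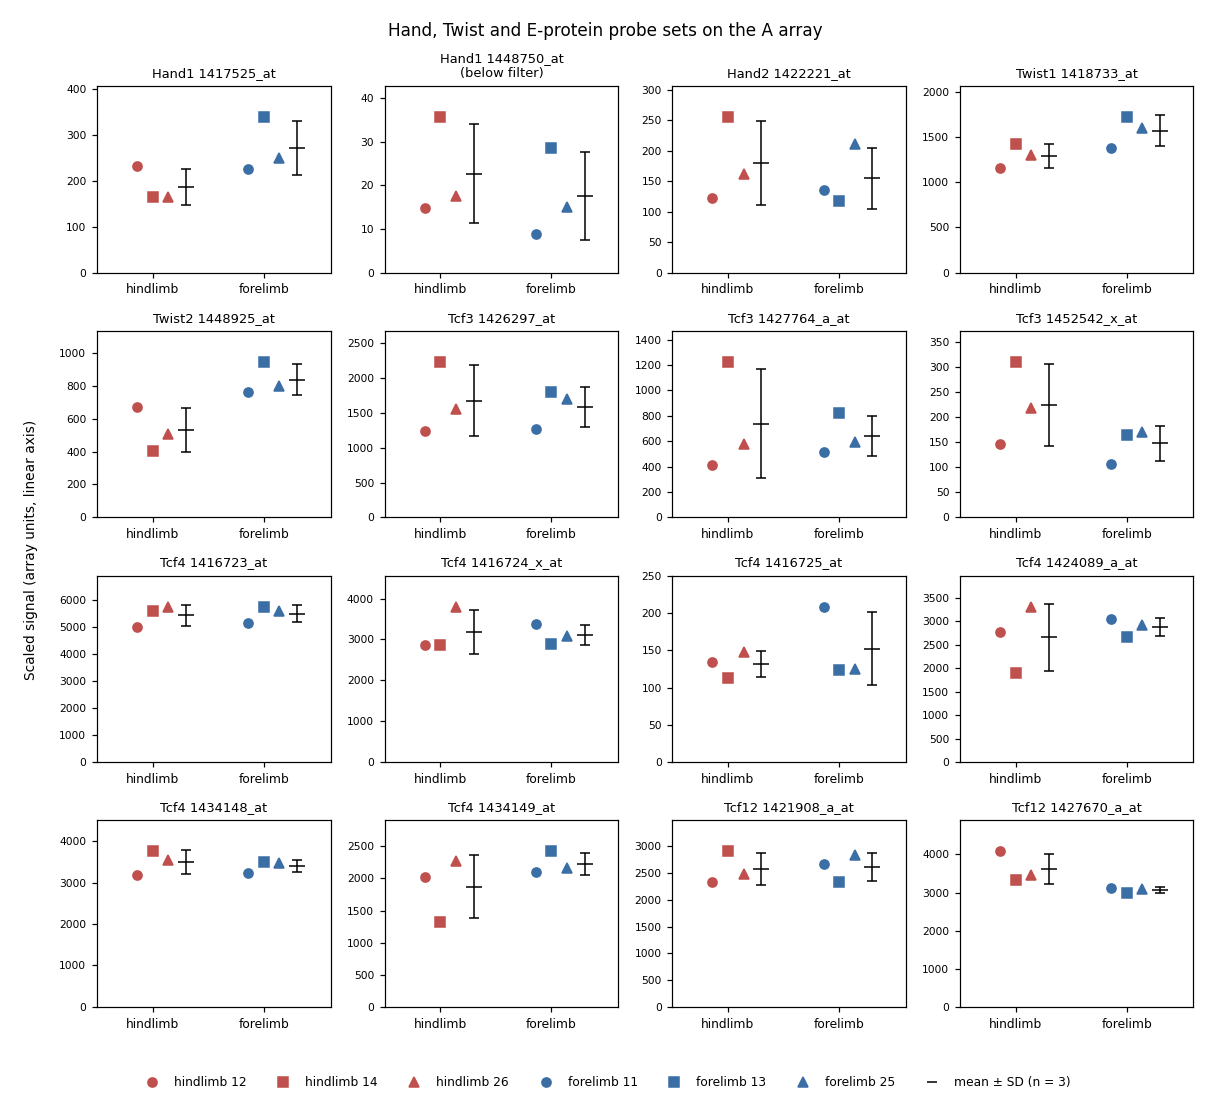
Scaled signals (linear axis, in array units) of the 16 probe sets on the A array, with hindlimb samples in red and forelimb samples in blue, marked by sample, and the mean with its SD (n = 3) beside them. The 3 hindlimb samples lie below the 3 forelimb samples for Twist2 and above them for Tcf12 1427670_a_at, while in the other panels the limbs overlap.

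Twist2, also called Dermo1, is a bHLH repressor of dermal and other mesenchyme and had the lowest p of the 7 genes. Its probe set read 672, 406 and 509 in hindlimb samples 12, 14 and 26, against 764, 946 and 802 in forelimb samples 11, 13 and 25. Every hindlimb sample lay below every forelimb sample, with hindlimb 14 lowest and forelimb 13 highest. The difference was -0.65 ± 0.18 (SE), with a 95% interval of -1.04 to -0.26, or a hindlimb level of 0.64 times that of forelimb. It ranked 101 by p among the tested probe sets of the design and missed the threshold after adjustment (limma, adjusted p = 0.552; 0.00368 before adjustment). With a sample left out it ranged from -0.83 to -0.49, the smallest without hindlimb 14, and it was negative in all 6 such fits. In bulk tissue, fewer cells of a type and less RNA per cell cannot be told apart.

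Twist1, the related factor of limb mesenchyme, read 1151, 1423 and 1298 in hindlimb samples 12, 14 and 26, against 1383, 1718 and 1603 in forelimb samples 11, 13 and 25. The limbs overlapped only through hindlimb 14, which lay above forelimb 11, the lowest forelimb sample. The difference was -0.27 ± 0.13 (limma adjusted p = 0.923), with a 95% interval of -0.56 to 0.015, so a hindlimb level below 0.677 or above 1.01 times that of forelimb lies outside it. Left-out samples gave -0.36 to -0.20. Twist1 and Twist2 thus each had a negative difference, on 1 probe set per gene and without passing the test.

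Hand1, known for its part in heart and extraembryonic tissue and also active in the limb bud, was dim. By the brighter of its probe sets it read 232, 164 and 166 in hindlimb samples 12, 14 and 26, against 227, 339 and 250 in forelimb samples 11, 13 and 25. Hindlimb 12 lay just above forelimb 11, and all other hindlimb samples lay below all forelimb samples. The difference was -0.47 ± 0.19, with a 95% interval of -0.88 to -0.053 and a limma p of 0.0305 (adjusted p = 0.813). Without forelimb 13, the highest sample, it was -0.32. The other Hand1 probe set was below the filter on all arrays, with scaled signals of 14.7 to 35.6 in hindlimb and 8.85 to 28.6 in forelimb, and was not tested. Both were designed from the same sequence record.

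Hand2, the posterior factor, was bright on the B array, where its main probe set read 5583, 7675 and 5096 in hindlimb samples 12, 14 and 26, against 3555, 5590 and 5562 in forelimb samples 11, 13 and 25. The limbs overlapped: hindlimb 14 was the highest sample, forelimb 11 the lowest, and the other 4 lay between 5096 and 5590. The difference was 0.33 ± 0.20 (limma adjusted p = 0.904), with a 95% interval of -0.11 to 0.76, which is 0.924 to 1.70 times the forelimb level. It was 0.15 without hindlimb 14 and 0.11 without forelimb 11.

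The Hand2 probe set on the A array was dim, at 122, 255 and 162 in hindlimb samples 12, 14 and 26 and 135, 117 and 212 in forelimb samples 11, 13 and 25. Hindlimb 14 was again the highest sample, and the limbs overlapped. Its difference of 0.17 ± 0.26 (limma adjusted p = 0.992) became -0.078 without hindlimb 14. The remaining Hand2 probe set, on the B array, lay below the filter at 55.7 or less in hindlimb and 43.6 or less in forelimb. Whether Hand2 differs from Twist2 or Hand1 in its difference between the limbs was not tested.

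**Figure D2:**
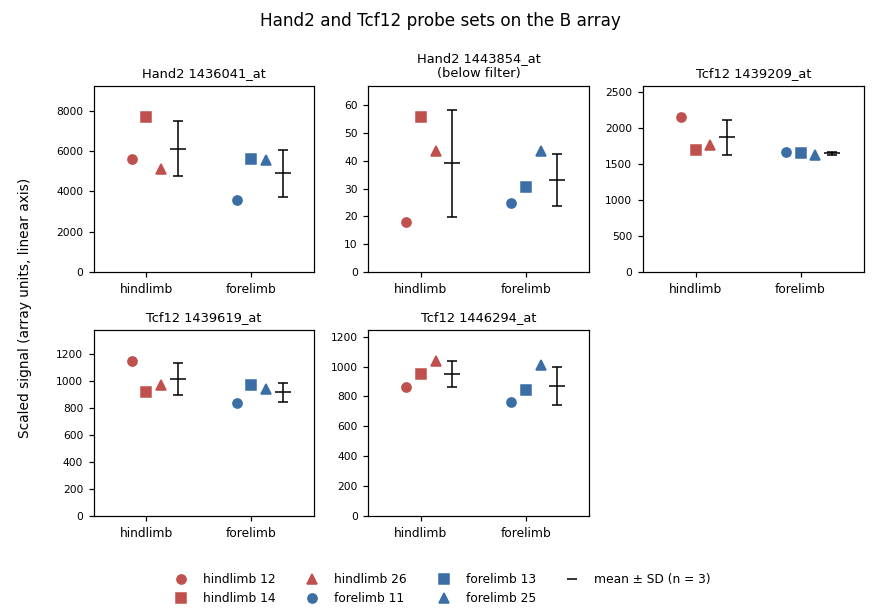
Scaled signals (linear axis, in array units) of the 5 probe sets on the B array, hindlimb samples in red and forelimb samples in blue, with the mean and SD (n = 3). Hand2 1436041_at runs from 3555 in forelimb 11 to 7675 in hindlimb 14, and the 3 hindlimb samples lie above the 3 forelimb samples for Tcf12 1439209_at.

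Most E-protein probe sets lay far above the filter in both limbs. Tcf12 (HEB), an E protein of muscle and other mesoderm, had 5 probe sets. On the A array the probe set 1427670_a_at read 4079, 3328 and 3450 in hindlimb samples 12, 14 and 26, against 3127, 2981 and 3105 in forelimb samples 11, 13 and 25. All hindlimb samples lay above all forelimb samples, and the forelimb samples were close together. The difference was 0.23 ± 0.11 (limma adjusted p = 0.915), with a 95% interval of -0.0079 to 0.47, and it was 0.14 without hindlimb 12, the highest sample.

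The Tcf12 probe set 1439209_at of the B array read 2148, 1692 and 1757 in hindlimb samples 12, 14 and 26, against 1666, 1643 and 1623 in forelimb samples 11, 13 and 25. The limbs again did not overlap, and hindlimb 12 again stood above the rest. The difference was 0.17 ± 0.13 (limma adjusted p = 0.924), and 0.068 without hindlimb 12. The other 2 Tcf12 probe sets on the B array gave 0.13 and 0.12 with overlapping limbs. The second on the A array gave -0.026 ± 0.12, with 2330 to 2902 in hindlimb and 2335 to 2833 in forelimb. Of the 5 Tcf12 probe sets, 4 thus had a positive difference, and the highest upper bound of their intervals was 0.47. The same samples lie behind both designs, so these are not independent measurements.

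Tcf3 (E2A), the E protein best known from lymphocyte development, varied widely between samples of the same limb, with a hindlimb SD of 0.77 on the log2 scale for 1427764_a_at (n = 3). On 1426297_at it read 1236, 2232 and 1556 in hindlimb samples 12, 14 and 26, against 1264, 1795 and 1703 in forelimb samples 11, 13 and 25. On 1427764_a_at it read 413, 1224 and 578 in hindlimb and 516, 818 and 594 in forelimb, in the same order of samples. On 1452542_x_at it read 147, 311 and 218 in hindlimb and 108, 165 and 171 in forelimb. Hindlimb 14 was the highest of the 6 samples on all 3 probe sets, and the limbs overlapped on each.

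The 3 Tcf3 differences were 0.050 ± 0.20, 0.075 ± 0.32 and 0.49 ± 0.24, with a limma adjusted p of 0.940 to 0.995. Without hindlimb 14 they were -0.17, -0.35 and 0.25, and without forelimb 11, the lowest forelimb sample on each, they were -0.10, -0.063 and 0.31, so the sign of the first 2 turned without either sample. By Affymetrix naming, the ending _x_at marks a probe set with probes that may match other transcripts, and it was designed from the same sequence record as 1427764_a_at, so the 3 are not independent.

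Tcf4 (E2-2), an E protein of neural, dendritic and mesenchymal cells, had 6 probe sets, all tested on the A array. The brightest, 1416723_at, read 5001, 5600 and 5732 in hindlimb samples 12, 14 and 26, against 5167, 5760 and 5588 in forelimb samples 11, 13 and 25. The limbs overlapped almost fully. Its difference was -0.017 ± 0.095, with a 95% interval of -0.23 to 0.19, so hindlimb levels below 0.855 or above 1.14 times the forelimb level lie outside it. This was the narrowest interval among the 7 genes. Another 2 probe sets, 1416724_x_at (0.018 ± 0.13) and 1434148_at (0.038 ± 0.10), had intervals of -0.27 to 0.31 and -0.19 to 0.26. The dim 1416725_at gave -0.14 ± 0.21, with forelimb 11 alone at 209 and the other 5 samples at 113 to 148.

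The remaining 2 Tcf4 probe sets were both lowest in hindlimb 14. The probe set 1434149_at read 2021, 1323 and 2273 in hindlimb samples 12, 14 and 26, against 2094, 2420 and 2170 in forelimb samples 11, 13 and 25. The probe set 1424089_a_at read 2773, 1898 and 3309 in hindlimb, against 3044, 2658 and 2915 in forelimb, in the same order. Hindlimb 14 was the lowest sample on both, whereas on 1434148_at, designed from the same sequence record as 1434149_at, it was the highest at 3752. Their differences of -0.28 ± 0.18 and -0.14 ± 0.17 (limma adjusted p = 0.955 and 0.982) became -0.052 and 0.078 without hindlimb 14.

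**Figure D3:**
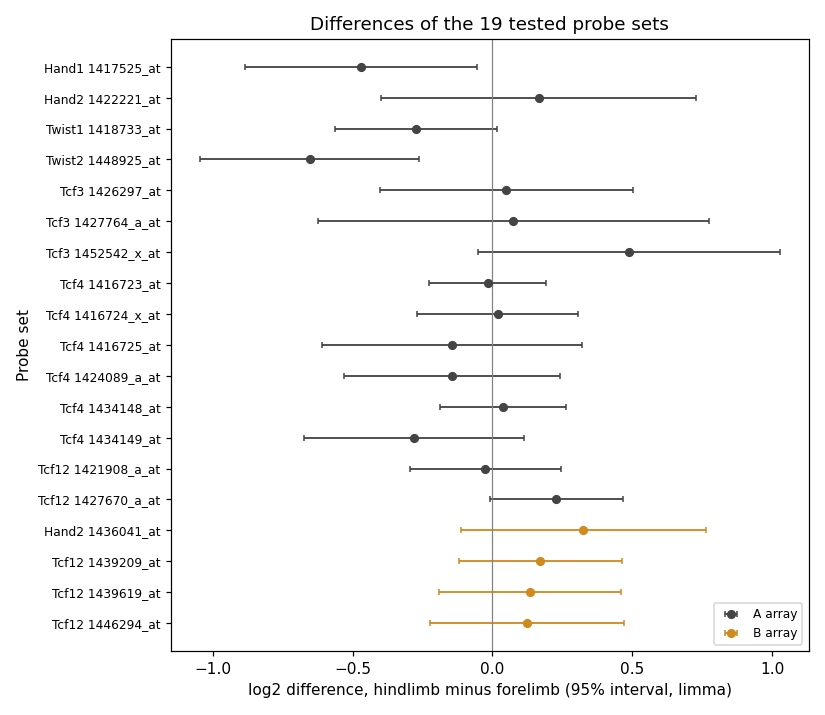
Log2 difference, hindlimb minus forelimb (x axis), of the 19 tested probe sets with limma's 95% intervals, A array in dark gray and B array in orange. The intervals of Twist2 and Hand1 lie below 0, the others hold 0, and that of Tcf4 1416723_at is the narrowest.

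Across the tested members on the A array, hindlimb 14 was the highest or the lowest sample on 11 of 15 probe sets, where over all tested probe sets it was so on 41.6%. Hindlimb 12 was an extreme on 8 of 15 (36.2% over all), forelimb 13 on 7 of 15 (28.6% over all) and forelimb 25 on 0 of 15 (29.1% over all). Forelimb 11 was the lowest sample on 3 of 4 on the B array, where it was so on 16.9% of all tested probe sets. The members that share this pattern include different probe sets of the same gene, so the counts are a description. The sign of the difference turned on 9 of the 19 tested probe sets when a single sample was left out, and on none of Twist2, Twist1, the tested Hand1 probe set, the Hand2 probe set tested on the B array, the 4 Tcf12 probe sets with positive differences, Tcf3 1452542_x_at and Tcf4 1434149_at.

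**Figure D4:**
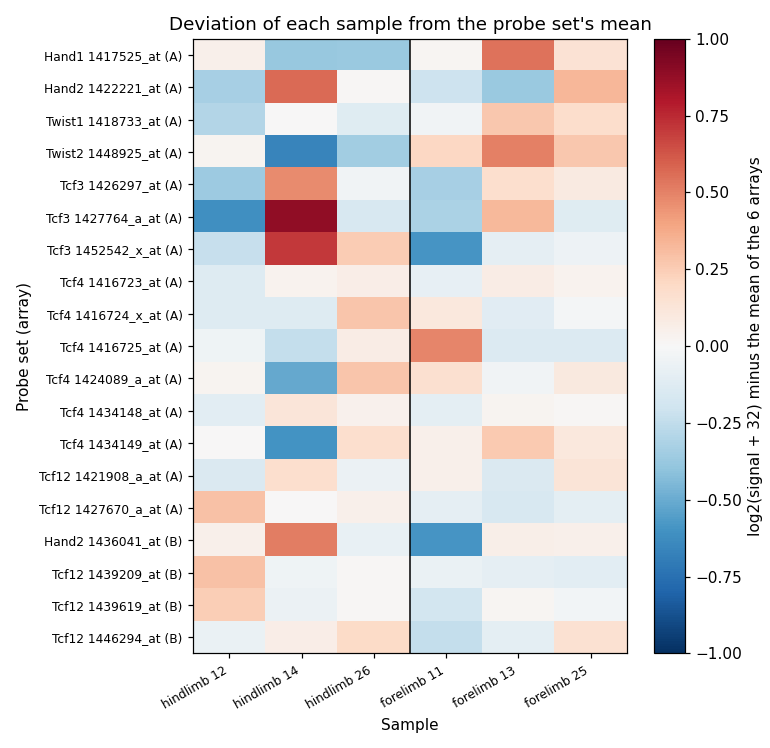
Each sample's log2(signal + 32) minus the mean of the 6 arrays (color), for the 19 tested probe sets (rows) and the 6 samples (columns, hindlimb left of the line). In hindlimb 14 the Tcf3 and Hand2 probe sets are above their mean, and Twist2 and Tcf4 1424089_a_at and 1434149_at are below it.

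Summed markers of other tissues did not overlap between the limbs for 4 lists and overlapped for 3 on the A array, where the Twist and Hand1 differences were measured. Of the single probe sets tested there, 4.94% did not overlap with hindlimb higher and 6.1% with hindlimb lower. The summed scaled signal of 5 of 5 muscle markers (all passing the filter) was 1013 to 1254 in hindlimb and 1280 to 1694 in forelimb. That of 6 of 6 surface ectoderm markers (all passing) was 2861 to 3420 in hindlimb and 3625 to 4826 in forelimb, and that of 5 of 5 endothelial markers (4 passing) was 1244 to 1365 in hindlimb and 1402 to 1502 in forelimb. Sums over 4 of 5 erythroid markers ran the other way, at 31420 to 34868 in hindlimb and 27999 to 30749 in forelimb. The sums overlapped for cartilage (5 of 5 markers, 7006 to 9202 in hindlimb and 8029 to 9448 in forelimb), macrophages (5 of 5, 1355 to 1476 in hindlimb and 1328 to 1364 in forelimb) and nerve and Schwann cells (4 of 5, 902 to 1233 in hindlimb and 1179 to 1263 in forelimb). The sum of 5 of 5 limb mesenchyme and autopod markers overlapped, at 8985 to 11160 in hindlimb and 10162 to 11167 in forelimb. On the B array the surface ectoderm sum (2 of 6 markers) overlapped, at 674 to 1268 in hindlimb and 794 to 1403 in forelimb. So did Myod1 for muscle (55.7 to 115 and 99.3 to 120) and Flt1 for endothelium (248 to 287 and 222 to 249). For Gapdh, the 3′ over 5′ signal as a log2 ratio, which reflects RNA quality, was -0.30 to -0.26 in hindlimb and -0.24 to -0.078 in forelimb on the A array. The same ratio of beta-actin overlapped, at 0.22 to 0.27 in hindlimb and 0.12 to 0.26 in forelimb, as did that of Gapdh on the B array, at -0.17 to -0.11 in hindlimb and -0.25 to -0.073 in forelimb. The part of these values in the members' differences was not tested.

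Partners and regulators of the members were read from lists, using the brightest tested probe set of each gene. At an unadjusted limma p under 0.05 the lists held, in the order given here, 2 of 8, 0 of 8, 1 of 5, 0 of 2, 4 of 18 and 3 of 19 genes on array A, and 0 of 1, 0 of 3, 1 of 4, 0 of 1, 2 of 9 and 0 of 10 on array B, where 5.54% of all tested probe sets did so on each. The genes whose limbs did not overlap are counted in the same order of lists, with the share of all tested probe sets in brackets. With hindlimb lower they were 2, 1, 1, 1, 5 and 2 on array A (6.1%), and 0, 0, 1, 0, 3 and 0 on array B (6.14%). With hindlimb higher they were 0, 0, 0, 0, 1 and 1 on array A (4.94%), and 0, 0, 1, 0, 0 and 0 on array B (4.81%). The median difference over all tested probe sets was -0.0086 (A) and -0.014 (B). Among inhibitors and regulators of bHLH pairs, 0 of 8 genes tested on the A array rose and 0 fell (2 positive and 6 negative differences, median -0.094, and -0.18 without hindlimb 14). Id4, an inhibitor of E proteins, read 228 to 275 in hindlimb and 446 to 511 in forelimb, with a difference of -0.86 ± 0.14 (limma adjusted p = 0.104, and 0.0476 with array weights), and its other probe sets gave -0.41 and -0.27. Hes1, a bHLH repressor of the Notch pathway, gave -0.31 ± 0.13 (adjusted p = 0.855). The limbs did not overlap, with hindlimb lower, on these 2 of the 8 genes, against 6.1% of all tested probe sets. The 1 gene tested on the B array, Prkaca, a catalytic subunit of protein kinase A, gave 0.16.

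Of the E-protein cofactors, 0 of 8 genes on array A and 0 of 3 on array B passed in either direction, with medians of 0.0011 and 0.0996. The first was -0.046 to -0.012 with any 1 sample left out, and the second -0.046 without hindlimb 12. Cbfa2t3, a corepressor of the ETO family, gave -0.33 ± 0.15 without overlap of the limbs (limma adjusted p = 0.910), and Lmo4, a LIM-only protein, gave -0.16. On the B array the LIM-binding factor Ldb2 gave 0.24 and the corepressor Cbfa2t2 gave -0.11.

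Among other tissue-restricted bHLH factors, 5 of 16 genes on array A and 4 of 5 on array B were bright enough to test, and 0 passed on either, with medians of -0.077 and -0.15. The first was -0.18 without forelimb 13. With the filter at 200 only Tal1 of this list was left, at 0.0096, which is also its difference in the main fit. The second was 0.057 without hindlimb 12 and 0.0096 without forelimb 11. With the values as deposited only Scx was left on array B, at 0.072. Neither median thus kept its sign, on array A only through the loss of the other genes. Mesp2 gave -0.50 ± 0.18 (limma adjusted p = 0.749) at 121 to 160 in hindlimb and 161 to 230 in forelimb. Scx (scleraxis), the tendon factor, gave -0.10 on array A and 0.073 on array B. On the B array Bhlha9, a bHLH factor of the distal limb bud, read 216, 131 and 179 in hindlimb samples 12, 14 and 26, against 32.9, 43.6 and 45.0 in forelimb samples 11, 13 and 25. The limbs were well apart, but the forelimb samples lay under the filter, so Bhlha9 was tested only through its hindlimb values. With the values as deposited Bhlha9 did not pass the filter. Its difference was 1.5 ± 0.43 (limma adjusted p = 0.775). Tcf21 gave -0.38 with overlapping limbs.

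Of the myogenic bHLH factors, which need E proteins as partners, 2 of 4 were tested on the A array and 0 passed. Myog (myogenin) read 97.5 to 163 in hindlimb and 164 to 193 in forelimb, a difference of -0.30 ± 0.19 (limma adjusted p = 0.955). Myod1 gave -0.12 on array A and -0.40 on array B, with overlapping limbs on each.

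In the circuit of Hand2, Shh and Gli3 in the posterior limb, 0 of 18 genes passed on array A and 1 of 9 on array B, which fell. The A array held 15 negative and 3 positive differences (median -0.15), and the B array 5 and 4 (median -0.13). Without hindlimb 12 the A median was -0.048, and Gas1, a hedgehog co-receptor named after its values were seen, passed (-0.89, limma adjusted p = 0.038). With all samples Gas1 gave -0.59 with overlapping limbs (limma adjusted p = 0.709). Hindlimb 12 read 4269 there, against 4164 to 4380 in forelimb. The other Gas1 probe set gave -0.54 without overlap of the limbs (limma adjusted p = 0.611). Without hindlimb 14 the B median was 0.0093. The gene that fell was Hhip, a hedgehog-binding target of the pathway, at 246 to 304 in hindlimb and 823 to 1191 in forelimb, with a difference of -1.73 ± 0.19 (limma adjusted p = 0.0214). Its other probe set on that array gave -2.49 (adjusted p = 0.0664), with 56.4 to 136 in hindlimb and 467 to 947 in forelimb. The adjusted p of the probe set that passed was 0.0819 with no filter, 0.105 without a trend in the variance prior, 0.0749 to 0.189 when hindlimb 14 or 26 or any 1 forelimb sample was left out, and 0.0455 without hindlimb 12. On the A array Hhip read 58.3 to 83.0 in hindlimb, all under the filter, and 164 to 297 in forelimb, so it was tested only through its forelimb values (-1.34 ± 0.22, limma adjusted p = 0.104). Hoxd11 gave -0.43 ± 0.14 (adjusted p = 0.647).

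Gli3, which counteracts Hand2, read 10990 to 11979 in hindlimb and 12679 to 16088 in forelimb on the B array, without overlap. The difference was -0.28 ± 0.13 (limma adjusted p = 0.903). Its other probe set on that array gave -0.19 with overlapping limbs (limma adjusted p = 0.917). On the A array Gli3 gave -0.32. Gli3 was named after its values were seen, as were Shh and Tbx3. Shh, the ligand whose gene Hand2 acts on, read 462, 538 and 335 in hindlimb samples 12, 14 and 26, against 57.1, 388 and 296 in forelimb samples 11, 13 and 25 on the B array. Forelimb 11 was far below the other 5 samples and the limbs overlapped, with a difference of 1.02 ± 0.48 (limma adjusted p = 0.904). Tbx3, a T-box factor of the limb bud, gave -0.57 ± 0.20 on array B and -0.17 on array A.

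Among genes linked to Twist1 in mesenchyme, FGF signalling and bone formation, 0 of 19 passed on the A array (4 positive and 15 negative, median -0.071) and 0 of 10 on the B array (5 and 5, median 0.017). The A median was -0.16 without forelimb 11, -0.14 without hindlimb 14 and -0.034 without forelimb 25, and the B median was -0.065 without forelimb 25 and -0.00025 with quantile normalization. Spry1, a feedback inhibitor of FGF signalling, read 450 to 541 in hindlimb and 672 to 849 in forelimb, a difference of -0.54 ± 0.14 (limma adjusted p = 0.498). Msx2, a homeobox factor, read 809 to 910 in hindlimb and 1041 to 1161 in forelimb (-0.35 ± 0.12, adjusted p = 0.684). The limbs did not overlap for either, while the Msx2 probe set on the B array gave 0.15 with overlapping limbs. On the B array Epha4, a receptor kinase, gave 0.16 and Zeb2 gave -0.27.

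**Figure D5:**
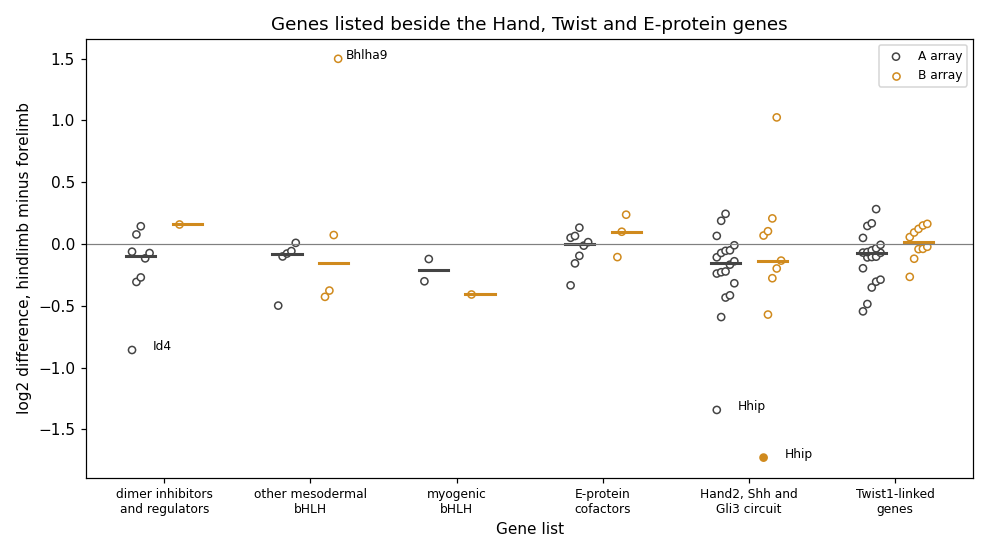
Log2 difference, hindlimb minus forelimb (y axis), of the brightest tested probe set of each gene in 6 lists (x axis), A array in gray and B array in orange, with bars at the medians and filled points past the adjusted threshold. The filled point is Hhip on the B array, at -1.73.

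For likeness, the log2 values of the brightest tested probe set of each member were set against those of the listed genes over the 6 arrays of a design (60 genes for A, 28 for B). The 6 points share their arrays, and the genes named were picked for the highest r, so the values describe these arrays only. Twist2 was most like Id4 (Pearson r = 0.88) and Gas1 (0.88), and Hand1 was most like the same pair (Gas1 0.85, Id4 0.77). Twist1 was most like Cbfa2t3 (0.92) and Msx2 (0.88). Hand2 was most like Grem1 (0.87) and Hoxd12 (0.85) on the A array, and Ldb2 (0.92) and Hoxd13 (0.92) on the B array. Tcf3 was most like Efnb1 (0.92) and Snai1 (0.88), and Tcf4 was most like Fgfr1 (0.99) and Prkaca (0.94). Tcf12 was most like Cdh11 on both designs, with 0.67 on array A and 0.83 on array B. Next came Epha4 (0.66) on array A and Runx1t1 (0.76) on array B.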

How the data were processed

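Total RNA of 6 autopod samples was measured on the MOE430 A and B arrays. The deposited values are MAS5.0 signal intensities, per the labels; for forelimb 11 on the A array no such note is given, and its values are on the same scale. The software version, scaling target and detection calls are unstated in those labels. The 2% trimmed mean of the deposited intensity was the same on all arrays of a design, 350.1 for A and 70.0 for B. Each array was scaled here to a trimmed mean of 500, control probe sets were left out, and log2(signal + 32) was tested with limma 3.58.1 (lmFit, eBayes with trend) in R 4.3.3, each design by itself, with Benjamini-Hochberg adjustment and a threshold of 0.05. Precision is limited by the 3 samples a limb, with a median SE of 0.16 (A) and 0.23 (B). The fit was tested on simulated data with independent normal noise drawn from its own variance prior. Such data hold no effects shared by the probe sets of a sample, so that test does not cover them. The 9 alternatives were 2 pseudocounts, 2 filters, 2 scalings, no trend, array weights and a block of consecutive sample numbers, and each sample was left out in turn. The members and lists were chosen with earlier results of these data known. Named were all member probe sets, each list gene past the threshold or otherwise the 2 of smallest p per list and design, 3 limb genes, and the 2 list genes most like each member. Probe set names come from the platform annotation, and promoters from RefSeq (GRCm38.p6).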

Additional observations from a re-analysis of the deposited data

How the results depend on the processing

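No member probe set passed the threshold under any of the alternatives or with any sample left out, on either array. The number of all probe sets past the threshold on the A array, 5 as reported, was 1 with no filter, 14 with array weights, 8 with the block of consecutive sample numbers and 3 to 9 with a sample left out. On the B array, with 2 as reported, it was 1 with no filter, 0 without a trend in the variance prior, 4 with the block and 1 to 4 with a sample left out. The labels state no pairing of the limbs; the block joins consecutive numbers only. With it, the members with an unadjusted limma p under 0.05 on the A array were 5 of 15 (Twist2, Tcf3 1452542_x_at, Twist1, Tcf12 1427670_a_at and Hand1) rather than 2, and 7.49% of all tested probe sets passed that mark rather than 5.54%. It was 4 with array weights (7.95% of all tested probe sets), 3 with quantile normalization (5.4%) and 1 to 3 with a sample left out (4.04 to 6.36%). Of the B array members it was 0 under each setting, where 4.63 to 6.35% of all tested probe sets passed that mark. Of 281 member differences under these settings, 265 kept their sign and side of the threshold and 16 changed sign, all in 9 probe sets. With array weights Tcf3 1426297_at gave -0.054 and Tcf3 1427764_a_at -0.038. With a sample left out, the differences ran from -0.078 to 0.37 for Hand2 1422221_at, -0.12 to 0.041 for Tcf12 1421908_a_at, -0.17 to 0.24 for Tcf3 1426297_at, -0.35 to 0.40 for Tcf3 1427764_a_at, -0.062 to 0.043 for Tcf4 1416723_at, -0.12 to 0.086 for Tcf4 1416724_x_at, -0.25 to 0.064 for Tcf4 1416725_at, -0.32 to 0.078 for Tcf4 1424089_a_at and -0.014 to 0.10 for Tcf4 1434148_at. The cause was not tested. Dim probe sets (Hand2 1422221_at, Tcf3 1452542_x_at, Tcf4 1416725_at) and the myogenic list on the A array had no value with the filter at 200. Of 149 list medians under these settings 10 were counted as moved, which did not follow the size of the shift alone. The E-protein cofactor median on array A was so counted at -0.046 with array weights, from 0.0011. That of the Hand2 circuit on array A was not, at -0.048 without hindlimb 12, from -0.15. Of 149 list counts 9 moved: 1 gene of the dimer inhibitors passed with array weights, 1 of the Hand2 circuit on the A array without hindlimb 12, and the Hhip call on the B array was lost in the other 7.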
